A study of Mus musculus with 8 samples.

Results

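Dexamethasone was compared with its vehicle in mouse small intestine over 4 of the 8 deposited samples, which were chosen by their titles: 2 from mice given dexamethasone and 2 from mice given the vehicle. All mice of the series were C57/Black6 females from the Jackson Laboratory, 6 weeks old, and all groups had an injection into the peritoneum every day for 5 days. The vehicle group received DMSO and the dexamethasone group 15 mg/kg dexamethasone. The remaining samples came from mice given 10 umol/kg DBZ, which inhibits gamma-secretase, the protease that releases the active part of Notch receptors, either alone (2 samples) or together with 15 mg/kg dexamethasone (2 samples). No transgene or allele is named for any group. Whole, snap-frozen segments of small intestine were used, and their position along the gut is not given in the labels. Total RNA was labelled and hybridised to Affymetrix arrays, and each array gave 1 signal intensity for each of 22690 probe sets.

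Dexamethasone is a synthetic glucocorticoid. It binds the glucocorticoid receptor, a nuclear receptor found in most cells, which then enters the nucleus, binds DNA and raises or represses the transcription of nearby genes. In the intestine glucocorticoids are known for hastening the maturation of the epithelium in young animals, for promoting sodium absorption and for holding back lymphocytes and inflammatory genes, and in many tissues they induce Fkbp5, Tsc22d3, Per1, Sgk1 and Zbtb16.

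Markers of the small intestinal epithelium were high in every array. Signals of Vil1 (villin) lay between 5603 and 6216 in the 4 arrays compared, those of Fabp2 between 9872 and 11160 and those of Lct (lactase) between 5124 and 8186, while Alb (liver), Atp4a and Gkn1 (stomach) and Hoxb13 (distal colon) stayed under 28 in the same 4 arrays. Cela2a, a pancreatic enzyme, was at 163 in vehicle replicate 2 and at most 12.9 in the other 3. The fat marker Adipoq was not low throughout, at 241 and 44 in the vehicle and 687 and 444 in the dexamethasone arrays. The arrays were scaled to a common trimmed mean of 250, because the vehicle arrays had been deposited at a trimmed mean of 500.2 and the other arrays at 250.1. After scaling, the vehicle arrays stood apart. The median absolute log2 difference over 13638 probe sets was 0.25 between the vehicle arrays and 0.20 between the dexamethasone arrays, but 0.31 to 0.36 between a vehicle and a dexamethasone array, and 0.19 to 0.30 between a dexamethasone array and an array of the DBZ or combination mice. A probe set for 18S ribosomal RNA read 133 and 141.1 in the vehicle arrays and 44.2 and 54.5 in the dexamethasone arrays, and the 3' to 5' ratio of Gapdh was 1.04 and 1.09 in the former and 1.18 and 1.15 in the latter. The same ratio for actin went the other way, at 1.51 and 1.79 in the vehicle and 1.40 and 1.22 in the dexamethasone arrays. The part of these array differences in the results below was not tested.

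Dexamethasone replicate 1 also stood apart from its replicate. Car1, a carbonic anhydrase typical of the large intestine, read 1.77 and 4.08 in the vehicle arrays, 7427 in dexamethasone replicate 1 and 39.9 in replicate 2. The acute phase gene Saa1 read 3.08 and 1.46 in the vehicle arrays and 1653 and 12.1 in the dexamethasone arrays, in the same order. Over 25 genes typical of the large intestine, the summed signal was 2.35 times the vehicle mean in dexamethasone replicate 1 and 0.59 times in replicate 2. Where a gene is said to have lost its call without this array, the value it leaves is given. For some lists only the number of calls left is given, so other named calls may also have needed it. Neither gene passed the test (Car1, log2 change 5.36 ± 1.65, adjusted p = 0.0644; Saa1, 3.79 ± 1.42, adjusted p = 0.117). Of the 13 genes of this list tested 3 rose and none fell, beside 6.93% and 5.29% of all genes. The 3 were Saa3 (2.97 ± 0.53, adjusted p = 0.00724), Prss32 (1.98 ± 0.34, adjusted p = 0.00658) and Mptx1 (1.96 ± 0.30, adjusted p = 0.00396). Mptx1 read 186 and 275 in the dexamethasone arrays and so was not highest in replicate 1, and Prss32 and Mptx1 kept their calls without each array in turn. Saa3 was 2.80 and not called without vehicle replicate 2, and 6 of the list rose without dexamethasone replicate 2.

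Differences between the dexamethasone and the vehicle mice were tested for 13638 probe sets with limma on log2(signal + 12.32), with 2 arrays in each group and the spread estimated from 7 distinct arrays of the series. At an adjusted p under 0.05, 1642 probe sets differed (12%), 985 of them higher (7.22%) and 657 lower (4.82%) in the dexamethasone mice. With 1 probe set for each gene, 561 of 8094 genes rose (6.93%) and 428 fell (5.29%), together 12.2%, and the median change over all genes was 0.02. The 4 arrays did not overlap in 56.4% of genes. On the values as deposited, 195 probe sets were called higher and 10209 lower, so that 1.87% of calls were higher against 60% after scaling. Changes were over 2-fold for 336 genes that rose and 233 that fell, and over 4-fold for 53 and 40. With 2 arrays a group the p-values measure only the spread between replicate arrays. This spread was pooled over the groups of the series and moderated across probe sets by limma. In whole tissue fewer cells of a type and less RNA per cell cannot be told apart. Leaving out 1 array changed the number of probe sets called to between 572 (without dexamethasone replicate 1) and 1629 (without the DBZ array). It was 746 without vehicle replicate 2, 1019 without dexamethasone replicate 2, and 1128 and 1144 without combination replicates 1 and 2.

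**Figure D1:**
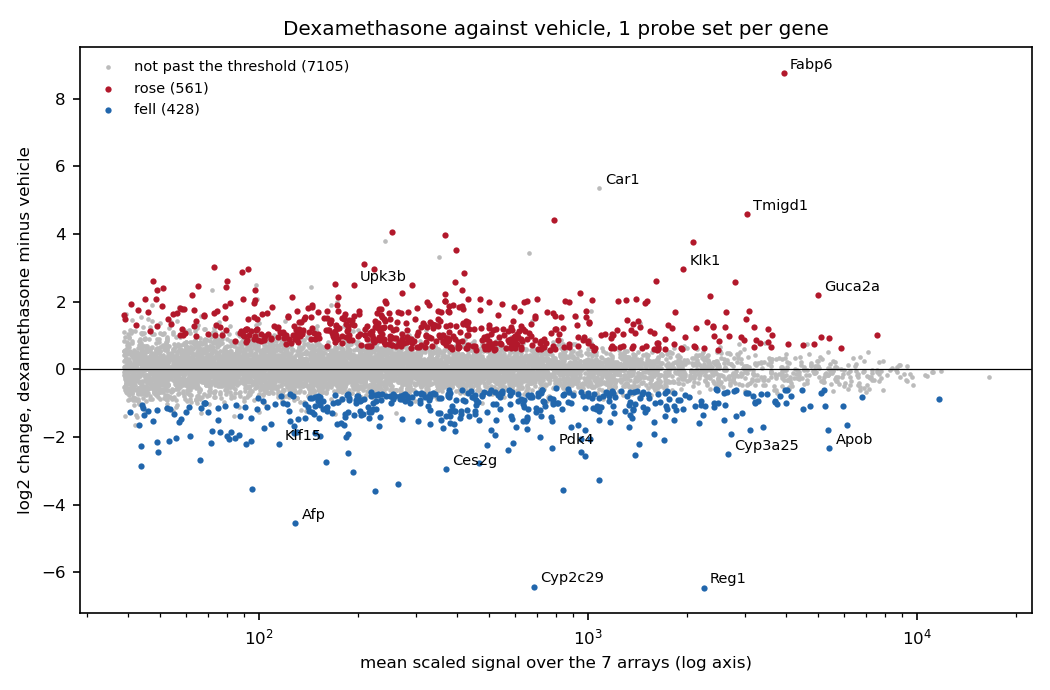
Log2 change between dexamethasone and vehicle (vertical axis) against the mean scaled signal over the 7 arrays (horizontal, log axis) for 8094 genes, with the 561 that rose in red, the 428 that fell in blue and the rest in grey. The genes lowest on the plot are Reg1 and Cyp2c29, Fabp6 is the highest, and Car1 lies high on the plot but did not pass the test.

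Genes that mark position along the small intestine lay at both ends of the range of changes. Of 23 ileal genes tested, 14 rose and none fell (6.93% of all genes rose), with a median change of 2.02, and of 26 duodenal and jejunal genes 18 fell and 1 rose (5.29% of all genes fell), with a median of -1.26. Fabp6, which carries bile acids in ileal enterocytes, read 0.64 and 1.22 in the vehicle arrays and 3324 and 10010 in the dexamethasone arrays. Reg1, a secreted lectin of the upper intestine, read 7193 and 8090 in the vehicle arrays and 101 and 54.7 in the dexamethasone arrays (log2 change -6.46 ± 0.25, adjusted p = 3.74e-06). The groups did not overlap for either gene, and Fabp6 was at or near 0 in both vehicle arrays, so the size of its log2 change depends on the 12.32 that was added. Tmigd1 (4.58 ± 0.25, adjusted p = 2.37e-05) and Slc5a8, a sodium-coupled carrier of short fatty acids (3.98 ± 0.22, adjusted p = 2.37e-05), also rose. Afp, alpha-fetoprotein, listed among the duodenal and jejunal and also the liver genes, fell from 325 and 448 to 9.51 and 0.52 (-4.56 ± 0.36, adjusted p = 0.000215), with 90.8 in the DBZ and 18.7 and 9.47 in the combination arrays (-1.99 ± 0.44, adjusted p = 0.113). The DBZ array lay on the dexamethasone side for Fabp6, Reg1 and Tmigd1, with signals of 11870 for Fabp6, 95.5 for Reg1 and 6089 for Tmigd1. Both position lists moved together with the comparison, and whether the groups were sampled at the same level of the gut was not tested.

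**Figure D2:**
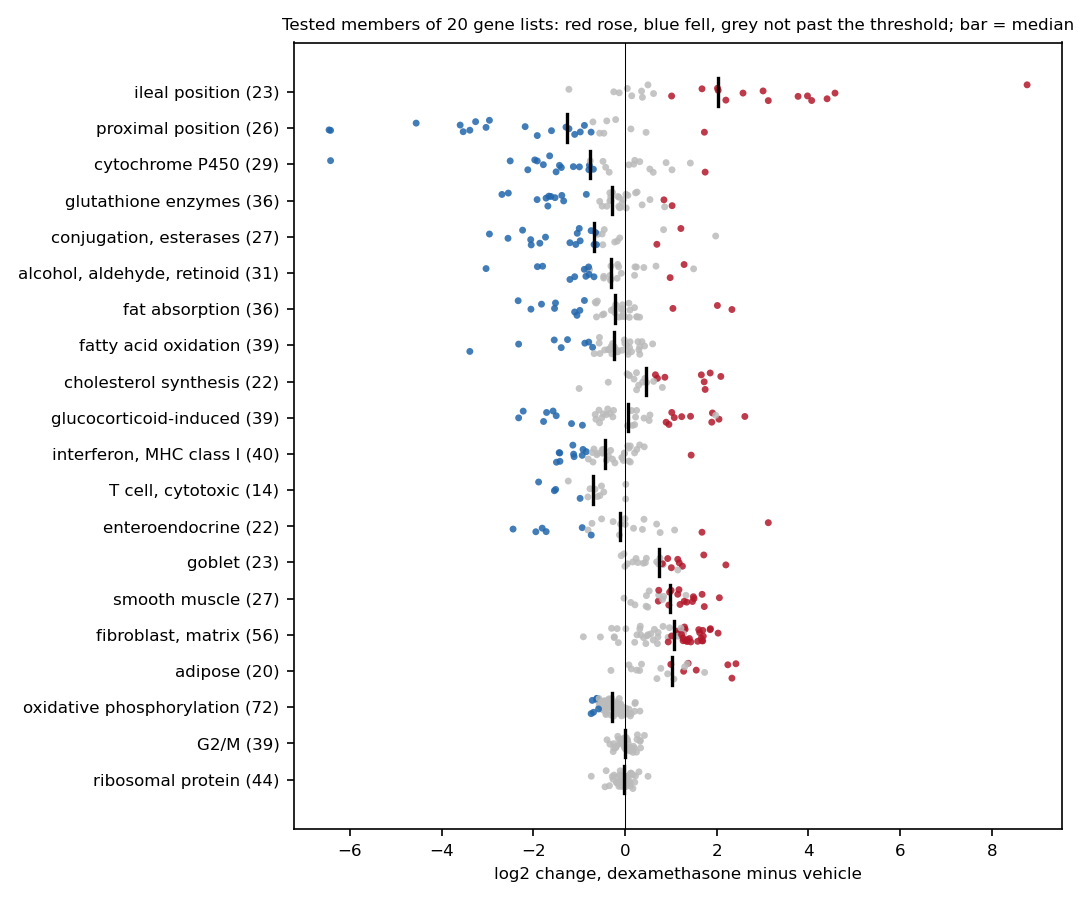
Log2 change of each tested member of 20 gene lists (points, horizontal axis) with the list in rows, the number of tested members in brackets and a bar at the median of the list. Ileal genes lie mostly right and proximal genes mostly left, the lists of drug-metabolising enzymes lie left, smooth muscle, matrix and adipose genes lie right, and G2/M and ribosomal protein genes lie around 0.

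The genes that glucocorticoids induce in many tissues did not move one way. Of 39 tested (45 with a probe set), 10 rose and 8 fell (6.93% and 5.29% of all genes), and the median change was 0.05. Several of the best known were lower in the dexamethasone mice 5 days into daily dosing. Fkbp5, a co-chaperone that limits the receptor, read 952 and 1316 in the vehicle arrays and 449.5 and 224 in the dexamethasone arrays. Both dexamethasone arrays lay under both vehicle arrays (log2 change with SE -1.78 ± 0.34, adjusted p = 0.00982), and the call was lost without vehicle replicate 2 (-1.55). Klf15, a transcription factor of amino acid and glucose use, read 159 and 281 in the vehicle and 46.6 and 26.9 in the dexamethasone arrays (-2.22 ± 0.36, adjusted p = 0.00517). Pdk4, the kinase that shuts down pyruvate dehydrogenase, read 921 and 1555 against 224 and 236 (-2.32 ± 0.25, adjusted p = 0.000841). For Klf15 and Pdk4 the arrays did not overlap, and both calls held without each array in turn.

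Pck1, the gluconeogenic enzyme phosphoenolpyruvate carboxykinase, fell from 2197 and 3402 to 947 and 969 (-1.50 ± 0.21, adjusted p = 0.00268), and Mertk, a receptor for the uptake of dying cells, from 1975 and 2842 to 1032 and 1065 (-1.17 ± 0.19, adjusted p = 0.00552). Zbtb16, a transcription factor, read 59.2 and 99.3 against 13.7 and 22.4 (-1.57 ± 0.33, adjusted p = 0.0148). Its call was lost without vehicle replicate 2 (-1.25) or without the first dexamethasone array (-1.37). Tsc22d3, which encodes the anti-inflammatory protein GILZ, read 529 and 813 in the vehicle and 405 and 727 in the dexamethasone arrays, so that the groups overlapped (-0.27 ± 0.28, adjusted p = 0.602). Per1, a clock gene, read 239 and 241 against 179 and 123 and did not pass (-0.65 ± 0.25, adjusted p = 0.128). The receptor itself, Nr3c1, was at 1235 and 1042 in the vehicle and 1037 and 1145 in the dexamethasone arrays (-0.06 ± 0.17, adjusted p = 0.865).

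Members that rose included Txnip, an arrestin that restrains glucose uptake, from 1063 and 999 to 2711 and 2202 (1.24 ± 0.17, adjusted p = 0.00254), Map3k6, a stress kinase, from 52.6 and 39 to 187 and 223 (1.91 ± 0.22, adjusted p = 0.00117), and Fbxo32, the ubiquitin ligase atrogin, from 26.6 and 19.7 to 176 and 101 (2.05 ± 0.32, adjusted p = 0.00422). No overlap was seen for these 3 genes, and the calls held without each array in turn. The DBZ array, without dexamethasone, read 3135 for Txnip, 259 for Map3k6 and 154 for Fbxo32, on the side of the dexamethasone arrays. For Fkbp5, Klf15 and Pdk4 it read 1072, 215 and 1248, near the vehicle arrays. Counts of this list also moved with single arrays: 3 rose and 5 fell without dexamethasone replicate 1, and 6 rose and 4 fell without vehicle replicate 2.

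Sgk1, the kinase that glucocorticoids and aldosterone use to raise sodium transport, read 3159 and 5084 in the vehicle and 1768 and 2489 in the dexamethasone arrays and fell (-0.93 ± 0.25, adjusted p = 0.0411). The groups did not overlap. The call needed vehicle replicate 2 and dexamethasone replicate 1, without which the change was -0.59 and -0.68, and both combination arrays (-0.93 and -0.93). Its promoter is shown because Sgk1 was the 1 of 33 tested list members with an available promoter that held the full palindrome of the glucocorticoid response element. The motif was searched as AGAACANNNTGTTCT on both strands from 250 bases before to 50 bases after each start. A match in any promoter of a gene counted. That motif is in 3 of 32851 promoters (0.00913%) of the RefSeq set (GRCm38.p6). The 250 bases before the start of Sgk1, chr10:21993640-21993889 on the + strand, read as follows, with the match in capitals, 189 bases before the start.
Sgk1: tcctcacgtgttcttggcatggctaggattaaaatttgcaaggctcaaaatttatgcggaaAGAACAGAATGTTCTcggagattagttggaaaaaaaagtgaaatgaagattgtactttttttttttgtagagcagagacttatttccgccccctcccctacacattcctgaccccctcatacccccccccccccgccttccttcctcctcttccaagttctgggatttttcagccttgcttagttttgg

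Of 9 tested genes around the receptor 3 rose and none fell (6.93% and 5.29% of all genes). However, 1 rose without vehicle replicate 1 or dexamethasone replicate 2, and none without vehicle replicate 2 or dexamethasone replicate 1. Hsd11b2, which inactivates corticosterone, read 69.7 and 60.2 in the vehicle and 373 and 126 in the dexamethasone arrays. It rose (1.58 ± 0.40, adjusted p = 0.0333), largely in dexamethasone replicate 1: without that array the change was 0.84 and no longer passed, and the call was also lost without vehicle replicate 1 (1.67) or 2 (1.49) and without either combination array (1.58 and 1.58). The drug pump gene Abcb1a (0.76 ± 0.19, adjusted p = 0.0308) and Fkbp4, a co-chaperone of the receptor (0.65 ± 0.18, adjusted p = 0.0426), rose too. With vehicle replicates 1 and 2 and dexamethasone replicates 1 and 2 left out in turn the change was 0.57, 0.94, 0.72 and 0.80 for Abcb1a, never called, and 0.81, 0.50, 0.67 and 0.64 for Fkbp4, called only in the first of these and lost without either combination array (0.65 and 0.65). Hsd11b1, which regenerates corticosterone, did not pass (0.42 ± 0.25, adjusted p = 0.321). Of 17 clock genes 2 fell and none rose (5.29% and 6.93% of all genes). The 2 were Arntl (-1.18 ± 0.29, adjusted p = 0.0285) and Clock (-0.78 ± 0.21, adjusted p = 0.0392), and neither call held when any 1 of the 4 arrays was left out. With vehicle replicates 1 and 2 and dexamethasone replicates 1 and 2 left out in turn, the change was -1.18, -1.18, -1.16 and -1.19 for Arntl and -0.89, -0.68, -0.67 and -0.90 for Clock, whose call also needed both combination arrays (-0.78 and -0.78).

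A second comparison of mice with and without dexamethasone, the combination against DBZ alone, shares no array with the first. It had 2 arrays against 1, since the DBZ columns held identical values for 22684 of 22690 probe sets and were counted as 1 array. It called 45 probe sets (0.33%) and 9 genes (0.111%). Fkbp5 read 1072 in the DBZ array and 346 and 197 in the combination arrays (-1.98 ± 0.41, adjusted p = 0.0953), and Klf15 read 215 in the former and 24.4 and 50.8 in the latter (-2.24 ± 0.45, adjusted p = 0.08). Zbtb16 read 135 against 36.6 and 33.5 (-1.64 ± 0.40, adjusted p = 0.153) and Per1 202 against 155 and 102 (-0.63 ± 0.31, adjusted p = 0.453). None of these passed in the second comparison, and all 4 lay lower in every array that held dexamethasone than in the DBZ array. Of the 19 members of the list that were lower with dexamethasone than with vehicle, 18 were also lower in the combination than in the DBZ array, and of the 20 that were higher 4 were also higher. Most members were thus lower in the combination whichever way they had moved, so the 18 of 19 is not read as agreement. The summed signal of the list was 1.657 times the vehicle mean in the single DBZ array and 1.264 and 1.363 times in the combination arrays. Over all genes, 46.9% had the same direction in both comparisons, and over the 989 genes called 41.1%.

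**Figure D3:**
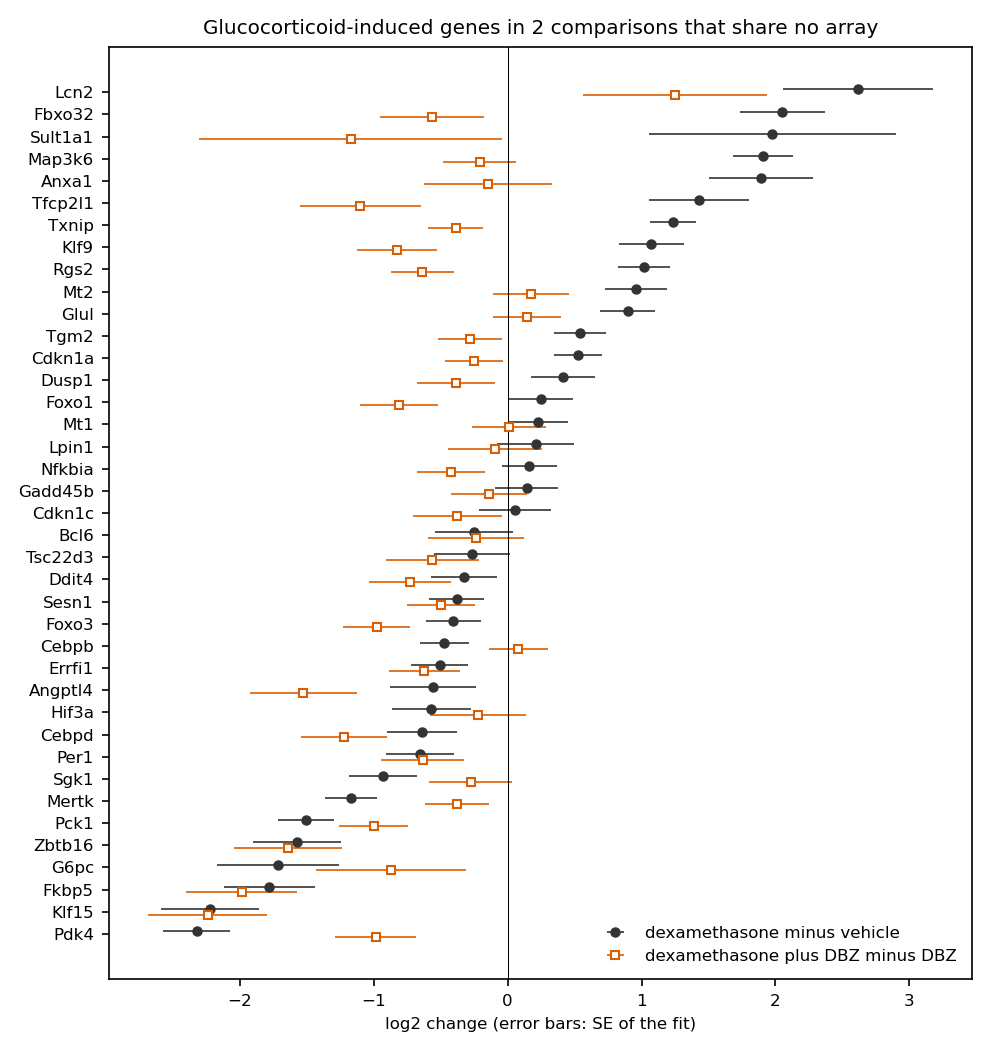
Log2 change with SE of 39 glucocorticoid-induced genes in dexamethasone against vehicle (filled circles, 2 against 2 arrays) and in the combination against DBZ (open squares, 2 against 1). Klf15, Fkbp5, Zbtb16 and Per1 lie left of 0 at nearly the same place in both, whereas Txnip, Map3k6, Klf9, Rgs2 and Fbxo32 lie right of 0 in the first and left in the second.

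Enzymes that process drugs and other foreign compounds were broadly lower. Cytochrome P450 enzymes oxidise such compounds, and glucocorticoids and the pregnane receptor are known to induce several of them in liver. Of 29 tested P450 genes and partners (42 with a probe set), 15 fell and 1 rose (5.29% and 6.93% of all genes), with a median change of -0.76. Cyp2c29 read 1599 and 2566 in the vehicle and 15.1 and 8.22 in the dexamethasone arrays (-6.42 ± 0.46, adjusted p = 0.000124). The arrays did not overlap, and the DBZ and combination arrays lay between, at 237 and at 295 and 81.2. Cyp3a11, the main intestinal drug oxidase of the mouse, fell from 7848 and 9113 to 2294 and 3169 (-1.64 ± 0.20, adjusted p = 0.00145), and Cyp3a25 from 4559 and 5525 to 1033 and 739 (-2.51 ± 0.22, adjusted p = 0.000405). Cyp2b10, a target of the constitutive androstane receptor, fell from 4270 and 4431 to 1173 and 1344 (-1.78 ± 0.17, adjusted p = 0.000427). For Cyp2b10 the DBZ array read 4276, and the log2 change of the combination against DBZ was -0.45. All 4 calls held without each array in turn. Cyp1a1, the target of the aryl hydrocarbon receptor (-2.12 ± 0.36, adjusted p = 0.00637), and Cyp27a1, a sterol hydroxylase of mitochondria (-1.50 ± 0.22, adjusted p = 0.00339), fell as well. The member that rose, Cyp51, belongs to cholesterol synthesis. Cyp4f14, which hydroxylates fatty acids and leukotrienes, did not pass (0.08 ± 0.19, adjusted p = 0.826). Without vehicle replicate 2, 8 P450 genes fell, and without dexamethasone replicate 1, 9.

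Glutathione transferases, which couple glutathione to reactive compounds, were mostly lower where they passed the test. Of 36 genes of transferases and glutathione synthesis, 11 fell and 2 rose (5.29% and 6.93% of all genes), with a median of -0.29. Gstm1 read 2167 and 1297 in the vehicle and 519.7 and 524 in the dexamethasone arrays (-1.66 ± 0.23, adjusted p = 0.00277), Gstm2 597 and 481 against 237 and 133 (-1.53 ± 0.27, adjusted p = 0.00673), and Gstm3 3758 and 2041 against 532 and 405 (-2.55 ± 0.28, adjusted p = 0.000841). None of the 3 overlapped between groups, and their calls held without each array in turn. The mu-class genes are near copies of one another, so their probe sets may share signal. Gstm4, Gstm6 and Gstm7 fell as well, but Gstm5 overlapped between groups and did not pass (-0.07 ± 0.21, adjusted p = 0.875). In other classes Gsta2 (-2.69 ± 0.51, adjusted p = 0.00956), Gsta3 (-1.62 ± 0.29, adjusted p = 0.00805), Gsta4 (-1.34 ± 0.23, adjusted p = 0.00635), Gstt1 (-1.38 ± 0.20, adjusted p = 0.00287) and Gstk1 (-0.84 ± 0.17, adjusted p = 0.0119) fell. The call of Gsta2, a dim gene, was lost without vehicle replicate 2 (-2.17) or dexamethasone replicate 1 (-2.07). Gsta3 (-1.34) and Gstk1 (-0.78) were not called without dexamethasone replicate 1, nor Gstm6 without vehicle replicate 2 (-1.76) or dexamethasone replicate 2 (-1.55). Gpx4, the peroxidase of lipid peroxides, and Gstp1 did not pass (-0.31 and -0.15), and Srxn1, a target of Nrf2 that repairs peroxiredoxins, rose (1.03 ± 0.17, adjusted p = 0.00515). Other probe sets of Srxn1 did not all show the same sign.

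Of 27 conjugating enzymes and carboxylesterases tested 16 fell and 2 rose (5.29% and 6.93% of all genes), with a median of -0.68. Ces2g, an intestinal esterase, fell from 942 and 906 to 118 and 98.9 (-2.96 ± 0.18, adjusted p = 6.19e-05). The glucuronosyltransferases Ugt2b5 (-2.23 ± 0.23, adjusted p = 0.000616) and Ugt2a3 (-2.06 ± 0.21, adjusted p = 0.000642) fell, as did Ephx1, the microsomal epoxide hydrolase, from 729 and 755 to 226 and 203 (-1.74 ± 0.19, adjusted p = 0.000841). No array of 1 group overlapped the other for these 4 genes. With vehicle replicate 2 left out 6 of the list fell, and with dexamethasone replicate 1 or 2 left out 9 or 7. Aadac, an esterase of the endoplasmic reticulum, fell from 2614 and 2822 to 554 and 606 (-2.21 ± 0.16, adjusted p = 0.000124). Proximal markers are among these families (Cyp2c29, Cyp2c65, Ces2g and Sult1b1 stand in both lists), and the summed P450 signal of the dexamethasone arrays was 0.604 and 0.591 times the vehicle mean where that of the proximal list was 0.528 and 0.534. Reg1, Adh4, Bbox1 and Gata4 likewise stand in the proximal list, and Guca2a and Pyy in the ileal list. The part of position along the gut in the results of these families was not tested.

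Of 31 alcohol, aldehyde and retinoid enzymes tested 10 fell and 2 rose (5.29% and 6.93% of all genes), with a median of -0.32. The intestine turns dietary carotene and retinol into retinyl esters, and Rbp2 carries retinol in enterocytes. Rbp2 read 10000 and 8448 in the vehicle and 2393 and 2902 in the dexamethasone arrays (-1.80 ± 0.18, adjusted p = 0.000619), with no overlap. Rdh7, a retinol dehydrogenase, fell from 2410 and 2830 to 585 and 802 (-1.91 ± 0.20, adjusted p = 0.000841) and Adh4 from 432 and 584 to 43.3 and 58.8 (-3.03 ± 0.28, adjusted p = 0.000427). These calls held without each array in turn, whereas the number that fell in the list was 3 when vehicle replicate 2 was left out and 4 or 6 when dexamethasone replicate 1 or 2 was.

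Of 36 fat absorption genes tested 9 fell and 3 rose (5.29% and 6.93% of all genes), with a median of -0.21. Without vehicle replicate 2 or dexamethasone replicate 1, 5 fell. Apob, the scaffold of chylomicrons, read 8395 and 10660 in the vehicle and 1323 and 2640 in the dexamethasone arrays (-2.33 ± 0.29, adjusted p = 0.00152). The groups did not overlap, and the DBZ array read 2896 and the combination arrays 6112 and 5773. Slc27a2, a fatty acid transporter and acyl-CoA synthetase, fell from 1517 and 2436 to 399 and 516 (-2.05 ± 0.24, adjusted p = 0.00119). Abcg8, which with Abcg5 returns plant sterols to the lumen, fell from 1173 and 1202 to 400.3 and 401 (-1.54 ± 0.18, adjusted p = 0.00119), and Apoc2, the activator of lipoprotein lipase, from 8367 and 8881 to 3856 and 4184 (-1.10 ± 0.18, adjusted p = 0.00499). Apoe rose from 148 and 81.2 to 498 and 468 (2.01 ± 0.26, adjusted p = 0.00177), and Apoa1, Apoa4 and Fabp2 did not pass (-0.24, -0.46 and -0.05). In fatty acid oxidation 8 of 39 tested genes fell and none rose (5.29% and 6.93% of all genes), with a median of -0.23. The number that fell was 5 without vehicle replicate 2 and 4 without dexamethasone replicate 1. Bbox1, the last enzyme of carnitine synthesis, read 473 and 975 against 58.9 and 49.2 (-3.39 ± 0.34, adjusted p = 0.000616), and the peroxisomal enzymes Acaa1b (-1.39 ± 0.21, adjusted p = 0.00405) and Ehhadh (-1.25 ± 0.21, adjusted p = 0.00582) also fell. Hadh, Acadl and Hadhb of mitochondrial oxidation did not pass (-0.35, -0.16 and 0.28).

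The respiratory chain was slightly lower as a group. Of 72 genes of the chain and ATP synthase tested, 62 were lower and 10 higher (52.1% of all genes lay higher), and the median change was -0.28. Only 7 passed, all lower, where 5.29% of all genes fell. Those 7 included Uqcrc1 of complex III (-0.71 ± 0.16, adjusted p = 0.0227) and Sdhc of complex II (-0.74 ± 0.17, adjusted p = 0.0218). No call of the list was kept without vehicle replicate 1 or either dexamethasone array, and 2 genes were called without vehicle replicate 2. With vehicle replicate 1 and dexamethasone replicates 1 and 2 left out in turn, Uqcrc1 was -0.59, -0.68 and -0.75 and Sdhc -0.65, -0.74 and -0.74. Sdhc was -0.83 and not called without vehicle replicate 2. Of 44 ribosomal protein genes none passed by limma, 2 had an unadjusted p under 0.05 and the median was -0.02.

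Sugar and amino acid metabolism held genes that fell and genes that rose. In sugar transport and gluconeogenesis 9 of 28 tested genes fell and 2 rose (5.29% and 6.93% of all genes), with a median of -0.21. However, 4 fell without either vehicle array and 2 without dexamethasone replicate 1. Slc5a4a, a sodium-linked sugar carrier or sensor, fell from 1904 and 2169 to 848 and 1004 (-1.13 ± 0.18, adjusted p = 0.00442), whereas Slc5a1, the main glucose carrier of the brush border, did not pass (-0.35, 7627 and 9146 against 6007 and 7165). Arg2, mitochondrial arginase, fell from 6017 and 5824 to 1687 and 1966 (-1.69 ± 0.16, adjusted p = 0.000503), and Ckb, brain-type creatine kinase, from 1810 and 1788 to 891 and 582 (-1.30 ± 0.22, adjusted p = 0.00626). Neither overlapped between groups. Of 14 brush border hydrolases 5 fell and 3 rose (5.29% and 6.93% of all genes), and without vehicle replicate 2 or dexamethasone replicate 1 it was 2 or 3 that fell. Treh, trehalase, fell from 3693 and 4222 to 1531 and 1715 (-1.28 ± 0.19, adjusted p = 0.00332), Ace, which converts angiotensin, from 5438 and 5744 to 2878 and 2738 (-0.99 ± 0.17, adjusted p = 0.00626), and the peptidase Xpnpep2 rose from 572 and 331 to 1419 and 2100 (1.96 ± 0.28, adjusted p = 0.00317). Slc6a20a, a proline carrier, fell from 4091 and 4481 to 1187 and 1906 (-1.50 ± 0.22, adjusted p = 0.00327). Of the 16 amino acid and peptide carriers tested Slc7a8 also fell (-1.09 ± 0.21, adjusted p = 0.00994). Slc1a5 (1.23 ± 0.22, adjusted p = 0.00816) and Slc38a2 (0.73 ± 0.19, adjusted p = 0.039) rose, and no other carrier passed, where 6.93% of all genes rose and 5.29% fell. Glul of the arginine and proline list rose too, from 468 and 390 to 972 and 667 (0.90 ± 0.21, adjusted p = 0.0229). Of 17 amino acid catabolism genes tested only Ddc, given below, passed, a share near the 5.29% of all genes that fell.

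Cholesterol synthesis moved the other way. Cells make cholesterol from acetyl-CoA through mevalonate and squalene, and the genes are switched on together by the factor SREBP when sterols run low. Of 22 tested, 8 rose and none fell (6.93% of all genes rose), 20 lay higher and the median change was 0.45. Sqle, squalene epoxidase, read 159 and 144 in the vehicle and 652 and 719.8 in the dexamethasone arrays (2.09 ± 0.20, adjusted p = 0.000501). Fdft1, squalene synthase, read 205 and 262 against 815 and 931 (1.86 ± 0.19, adjusted p = 0.000642), and Cyp51, lanosterol demethylase, 152 and 213 against 553 and 728 (1.75 ± 0.23, adjusted p = 0.00196). Fdps, farnesyl diphosphate synthase (1.73 ± 0.26, adjusted p = 0.00346), and Mvk, mevalonate kinase (1.66 ± 0.26, adjusted p = 0.00459), rose too. Every dexamethasone array lay over every vehicle array for these 5 genes, and their calls held without each array in turn. The DBZ array, with no dexamethasone, read 599 for Sqle and 894 for Fdft1, near the dexamethasone arrays. Idi1 and Ebp of the same pathway did not pass (0.38 and 0.25). With vehicle replicate 2 or either dexamethasone array left out, 5 rose.

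Hmgcs1, which makes the HMG-CoA that feeds the pathway, rose from 1992 and 1892 to 3385 and 3732 (0.87 ± 0.17, adjusted p = 0.0116), without overlap, but the call needed vehicle replicate 2 and both dexamethasone arrays (0.83 without the former, 0.94 and 0.80 without dexamethasone replicates 1 and 2). Its promoter is shown because Hmgcs1 was the 1 of 18 members with an available promoter that matched the sterol regulatory element in any promoter. This site of SREBP was searched as TCACNCCAC on both strands. The motif is in 1.24% of all promoters of that length. The 250 bases before the start, chr13:119690101-119690350 on the + strand (GRCm38.p6), carry it in capitals, 137 bases before the start.
Hmgcs1: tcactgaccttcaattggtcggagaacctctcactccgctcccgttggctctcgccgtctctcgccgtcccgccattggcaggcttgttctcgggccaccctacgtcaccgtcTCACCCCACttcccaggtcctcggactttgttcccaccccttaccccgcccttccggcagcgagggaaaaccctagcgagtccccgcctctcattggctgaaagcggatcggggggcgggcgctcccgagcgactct

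In fatty acid synthesis 3 of 19 tested genes rose and 1 fell (6.93% and 5.29% of all genes), and 5 rose without vehicle replicate 1. Elovl1, which elongates saturated fatty acids, rose from 860.1 and 853 to 1638 and 2014 (1.07 ± 0.18, adjusted p = 0.00526), and the desaturase Scd2 from 220.1 and 94.7 to 693 and 539 (1.98 ± 0.35, adjusted p = 0.00674). Scd1 read 2250 and 439 in the vehicle arrays, which differed from each other more than the dexamethasone arrays at 2327 and 2845, and did not pass (1.36 ± 0.58, adjusted p = 0.165). Both Scd genes are abundant in fat, whose markers were also higher, and the part of adipose tissue in them was not tested.

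**Figure D4:**
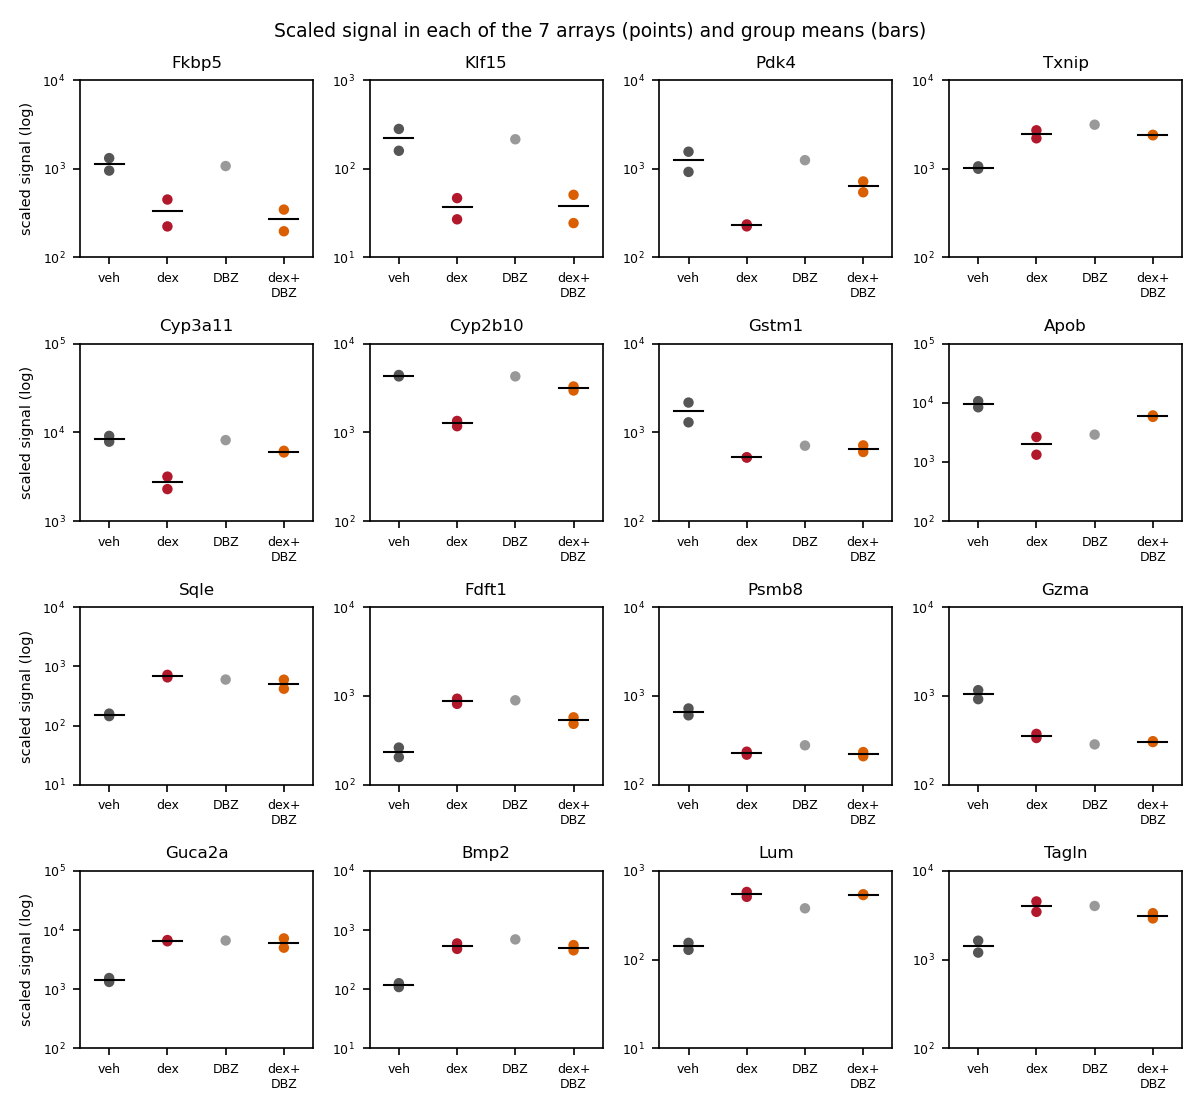
Scaled signal (log axis) of 16 genes in each of the 7 distinct arrays, with a bar at the mean of each group of 2. Fkbp5, Klf15 and Pdk4 are lower in the 4 arrays with dexamethasone than in the vehicle and DBZ arrays, whereas for Gstm1, Sqle, Psmb8, Gzma, Guca2a, Bmp2, Lum and Tagln the DBZ array lies nearer the dexamethasone than the vehicle arrays.

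Interferon-induced genes were lower. Interferons warn cells of viruses and raise antiviral proteins and the machinery that loads peptides on MHC class I. Of 40 tested (49 with a probe set), 10 fell and 1 rose (5.29% and 6.93% of all genes), 30 lay lower and the median change was -0.44. Psmb8, a catalytic subunit of the immunoproteasome, read 723 and 605 in the vehicle and 236 and 218 in the dexamethasone arrays (-1.50 ± 0.18, adjusted p = 0.00145), and Ddx60, an antiviral helicase, 354 and 407 against 159 and 113 (-1.42 ± 0.23, adjusted p = 0.00465). Neither overlapped between the groups, and both calls held without each array in turn. The DBZ array read 278 and 76, on the dexamethasone side. Tap1, the peptide pump, fell from 270 and 252 to 127 and 102 (-1.11 ± 0.21, adjusted p = 0.00915), a call lost without dexamethasone replicate 2 (-0.97), whereas H2-K1 and B2m of MHC class I did not pass (-0.22 and -0.62). The number that fell was 4 without either vehicle array, 7 without dexamethasone replicate 1 and 2 without dexamethasone replicate 2.

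Ifit1, which binds viral RNA, read 422 and 456 in the vehicle and 275 and 84.2 in the dexamethasone arrays (-1.44 ± 0.41, adjusted p = 0.0474), and Igtp, an immunity-related GTPase, 262 and 184 against 128 and 68.5 (-1.12 ± 0.29, adjusted p = 0.0356). Dexamethasone replicate 2 was the lowest of the 4 arrays for both, and the calls were lost without it (-0.65 and -0.72), without either vehicle array and without either combination array. With vehicle replicates 1 and 2 and combination replicates 1 and 2 left out in turn the changes were -1.49, -1.38, -1.43 and -1.44 for Ifit1 and -0.88, -1.37, -1.12 and -1.12 for Igtp. Ifit1 was -2.23 without dexamethasone replicate 1. Their promoters show the interferon-stimulated response element, searched as GAAANNGAAA on both strands. Of the 33 members with an available promoter 17 held it in at least 1 promoter, among them 4 of the 8 such members that fell. It is in 3.44% of all promoters, counted promoter by promoter and not by gene. Members with the motif did not all fall: Ifit3 and Irgm1, picked after their values were seen because they hold it, did not pass (0.09 and -0.05). The 250 bases before each start, chr19:34640639-34640888 and chr11:58199306-58199555, both on the + strand (GRCm38.p6), follow with the matches in capitals, the nearest 85 bases before the start of Ifit1 and 34 before that of Igtp.
Ifit1: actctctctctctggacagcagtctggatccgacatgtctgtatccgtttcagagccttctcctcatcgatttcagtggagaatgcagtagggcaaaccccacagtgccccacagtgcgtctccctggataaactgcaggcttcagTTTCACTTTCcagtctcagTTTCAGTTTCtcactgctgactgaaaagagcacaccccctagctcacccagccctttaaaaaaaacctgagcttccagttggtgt
Igtp: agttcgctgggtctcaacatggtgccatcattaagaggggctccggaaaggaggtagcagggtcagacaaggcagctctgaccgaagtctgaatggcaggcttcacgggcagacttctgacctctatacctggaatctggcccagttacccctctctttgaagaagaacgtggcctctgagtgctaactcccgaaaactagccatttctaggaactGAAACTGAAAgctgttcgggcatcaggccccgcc

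T cell and cytotoxic genes were lower as well. Of 45 with a probe set 14 were bright enough to test, and 12 of those lay lower. Of the 14, 4 fell and none rose (5.29% and 6.93% of all genes), and the median was -0.71. Gzma, granzyme A of cytotoxic and intraepithelial lymphocytes, read 921 and 1162 in the vehicle and 336 and 374 in the dexamethasone arrays (-1.51 ± 0.18, adjusted p = 0.00131). Gzmb read 242 and 274 against 79.8 and 81 (-1.54 ± 0.23, adjusted p = 0.00369), and the chemokine Ccl5 300.1 and 307 against 58.3 and 91.1 (-1.89 ± 0.25, adjusted p = 0.0024). No array of 1 group overlapped the other, and the 3 calls held without each array in turn. The DBZ array read 285 for Gzma, near the dexamethasone arrays. Summed over the 45 genes, the signal was 0.48 and 0.58 times the vehicle mean in the dexamethasone arrays, with 0.90 and 1.10 in the vehicle arrays. The defining marker Cd3e, a chain of the T cell receptor complex, was dim throughout, at 44.3 and 56.3 in the vehicle and 34.1 and 44.2 in the dexamethasone arrays.

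In the B and plasma cell list 3 of 17 fell and 1 rose (5.29% and 6.93% of all genes). Without dexamethasone replicate 1, 1 fell. The single rise and this single fall are shares near those of all genes. Pigr, the epithelial receptor that carries IgA into the lumen, fell from 8879 and 9307 to 4824 and 3777 (-1.09 ± 0.18, adjusted p = 0.0057), and Sdc1, syndecan of plasma cells and epithelium, rose from 351 and 339 to 1008 and 1027 (1.53 ± 0.18, adjusted p = 0.00103). Jchain, the joining chain of IgA, read 2359 and 1468 against 691 and 955 (-1.18 ± 0.26, adjusted p = 0.0169), a call lost without vehicle replicate 1 (-0.84) or dexamethasone replicate 1 (-0.95). Of 24 myeloid genes 1 rose and none fell, beside 6.93% and 5.29% of all genes, so this count is no result about the list. Of 7 MHC class II genes none passed by limma and 1 had an unadjusted p under 0.05. Il18, an epithelial cytokine, fell from 1601 and 2417 to 814 and 902 (-1.19 ± 0.21, adjusted p = 0.00674), and the call was lost without dexamethasone replicate 1 (-1.11). No direction of the 26 chemokine and cytokine genes tested is read from Il18. Their median became negative only under some other settings (-0.10 without a filter and -0.15 with only the groups compared).

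Secretory cells gave mixed results. Among goblet cell genes 8 of 23 rose and none fell (6.93% and 5.29% of all genes), with a median of 0.73. Guca2a, guanylin, which stimulates chloride secretion through cGMP, read 1542 and 1326 in the vehicle and 6769 and 6453 in the dexamethasone arrays (2.20 ± 0.20, adjusted p = 0.000427), with no overlap and a DBZ array at 6646. Zg16, Tff3 and Fcgbp, abundant products of goblet cells, did not pass (-0.08, 0.05 and 0.24), and the number that rose was 2 without vehicle replicate 2 and 1 without dexamethasone replicate 1, 5 without either remaining array of the 4. Among Paneth cell genes 4 of 13 rose and 1 fell (6.93% and 5.29% of all genes). Without dexamethasone replicate 2, 1 rose, and only the fall was called without vehicle replicate 2. The 4 were Nupr1 (3.53), a stress-induced gene, Mmp7 (1.44), Pnliprp2 (1.04) and Pla2g2a (0.997). Nupr1 read 1897 in dexamethasone replicate 1 and 362 in replicate 2. Xdh, xanthine dehydrogenase, fell from 2598 and 2748 to 1333 and 1177 (-1.09 ± 0.18, adjusted p = 0.00499). Lyz1, the Paneth lysozyme, did not pass (0.13). Atoh1, the factor that sets the secretory fate, read 177 and 165 against 265 and 372 and did not pass (0.83 ± 0.25, adjusted p = 0.0596), and the Notch target Hes1 did not pass either (0.19 ± 0.28, adjusted p = 0.724).

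Hormones of enteroendocrine cells moved in both directions, with 6 of 22 tested that fell (3 without vehicle replicate 1) and 2 that rose. Of all genes 5.29% fell and 6.93% rose. Gip, the incretin of the upper intestine, read 1726 and 1191 in the vehicle and 374 and 429 in the dexamethasone arrays (-1.81 ± 0.20, adjusted p = 0.000931). Cck, cholecystokinin, read 220.1 and 142 against 37.4 and 36.1 (-1.95 ± 0.30, adjusted p = 0.00412), and Ghrl, ghrelin, 138 and 79.6 against 3.03 and 18.1 (-2.44 ± 0.41, adjusted p = 0.00591). Pyy, the peptide of the lower intestine, read 39.1 and 16.8 against 289 and 366 and rose (3.12 ± 0.28, adjusted p = 0.000427). None of these overlapped between groups, and the calls held without each array in turn, except that Ghrl was too dim to test without vehicle replicate 1. Gip, Cck and Ghrl are known as hormones of the upper gut and Pyy as one of the lower gut. Ddc, which makes serotonin and dopamine, fell from 2659 and 2264 to 663 and 817 (-1.72 ± 0.19, adjusted p = 0.000975).

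Genes of the gut wall were higher. Of 27 smooth muscle genes 16 rose and none fell (6.93% of all genes rose), with a median of 0.97, and of 56 fibroblast and matrix genes 27 rose and none fell, with a median of 1.07. Tagln, a calponin-like protein of smooth muscle, read 1633 and 1199 in the vehicle and 4525 and 3454 in the dexamethasone arrays (1.49 ± 0.21, adjusted p = 0.00279). Actg2, enteric smooth muscle actin, read 1446 and 944 against 4300 and 3313 (1.68 ± 0.23, adjusted p = 0.00272), and Pln, phospholamban, 72.9 and 67.4 against 242 and 203 (1.51 ± 0.21, adjusted p = 0.0026). The groups did not overlap, and the 3 calls held without each array in turn. Mylk, myosin light chain kinase, did not pass (0.22).

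Among matrix genes, Lum, the collagen-binding proteoglycan lumican, read 155 and 129 against 579 and 509.7 (1.86 ± 0.18, adjusted p = 0.000501), Postn, periostin, 239 and 211 against 1177 and 773 (2.03 ± 0.21, adjusted p = 0.000756), and Ogn 191 and 128 against 641 and 568 (1.86 ± 0.21, adjusted p = 0.000952). Grem1, the BMP antagonist of crypt-base stroma, read 83.6 and 82.8 against 285 and 302 (1.68 ± 0.22, adjusted p = 0.00221). Dexamethasone arrays lay over vehicle arrays throughout, and the DBZ array read 379 for Lum, 689 for Postn and 374 for Grem1, above both vehicle arrays. Vehicle replicate 1 read above vehicle replicate 2 for 49 of the 56 matrix genes. Summed over 64 matrix genes, the signal relative to the vehicle mean was 1.24 and 0.761 in the vehicle arrays and 2.40 and 1.84 in the dexamethasone arrays. Without vehicle replicate 2, 5 smooth muscle and 12 matrix genes rose, and without dexamethasone replicate 1, 6 and 10. Of 20 adipocyte genes 7 rose and none fell (6.93% and 5.29% of all genes), with a median of 1.03. The number that rose was 3 without vehicle replicate 2 and 1 without dexamethasone replicate 1. Agt, angiotensinogen, read 4.43 and 7.2 against 91 and 78.1 (2.42 ± 0.36, adjusted p = 0.00341). Adipoq, adiponectin, which defines adipocytes, read 241 and 44 in the vehicle and 687 and 444 in the dexamethasone arrays (2.24 ± 0.57, adjusted p = 0.0325), but this call needed every array of the dexamethasone and combination groups and vehicle replicate 2. The change was 1.16 without that vehicle array and 1.94 and 2.55 without dexamethasone replicates 1 and 2, and 2.24 and 2.24 without combination replicates 1 and 2. How much muscle, stroma and attached fat each piece of gut held was not tested, and of 13 enteric neuron and glia genes none passed by limma and 2 had an unadjusted p under 0.05.

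Myl9, the regulatory light chain of smooth muscle myosin, was picked after its values were seen, because its promoter held the CArG box, the binding site of serum response factor. It read 2614 and 1747 in the vehicle and 4599 and 4023 in the dexamethasone arrays (1.0 ± 0.21, adjusted p = 0.0145), and its call was lost without vehicle replicate 2 (0.72) or dexamethasone replicate 1 (0.91). Of 22 smooth muscle genes with an available promoter 4 held the box in at least 1 promoter (Myl9, Myl6, Srf and Ldb3), and of the 13 such genes that rose, 1. It is in 1.63% of all promoters, counted promoter by promoter and not by gene. The 250 bases before the start of Myl9, chr2:156775214-156775463 on the + strand (GRCm38.p6), follow with the match in capitals, 161 bases before the start.
Myl9: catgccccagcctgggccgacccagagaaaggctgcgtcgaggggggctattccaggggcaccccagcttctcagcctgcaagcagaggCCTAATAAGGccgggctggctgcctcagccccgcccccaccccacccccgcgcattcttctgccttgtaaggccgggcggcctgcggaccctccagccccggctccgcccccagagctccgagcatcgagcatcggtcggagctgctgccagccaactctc

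**Figure D5:**
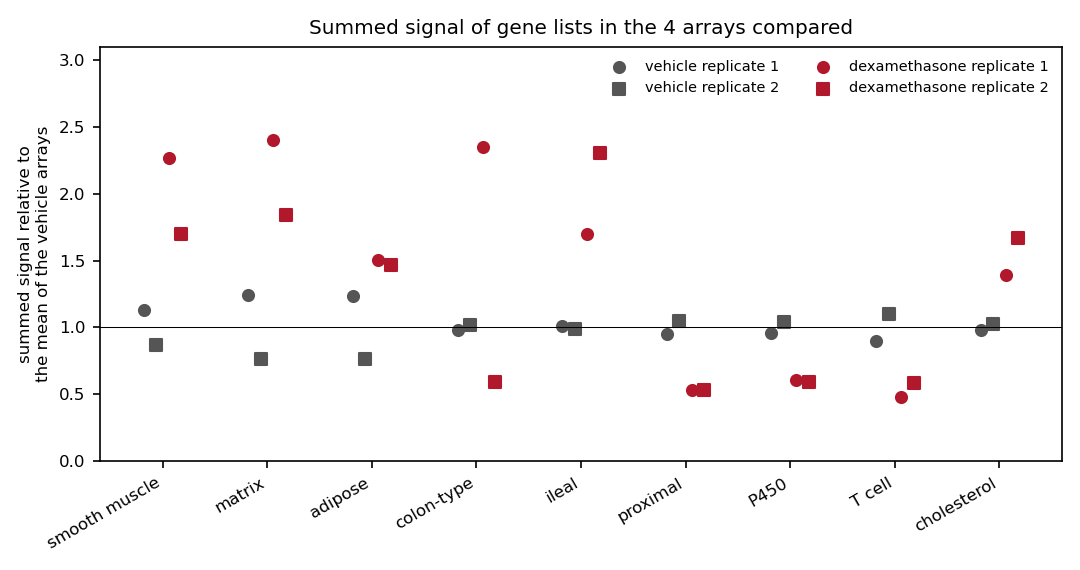
Summed scaled signal of 9 gene lists in the 4 arrays compared, relative to the mean of the vehicle arrays (vertical axis, linear from 0). Both dexamethasone arrays lie over both vehicle arrays for smooth muscle, matrix, adipose, ileal and cholesterol genes and under them for proximal, P450 and T cell genes, and the colon-type sum is high in dexamethasone replicate 1 alone.

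Of 41 growth factor genes tested 10 rose and 2 fell (6.93% and 5.29% of all genes), with a median of 0.35, and 6 rose without vehicle replicate 2. Bmp2, a signal that restrains proliferation as cells leave the crypt, read 109 and 126 in the vehicle and 480 and 593 in the dexamethasone arrays (2.08 ± 0.19, adjusted p = 0.000433). Id4, a target of BMP signalling, read 119 and 154 against 397 and 343 (1.37 ± 0.20, adjusted p = 0.0034), and Igfbp6, which binds insulin-like growth factor, 135 and 63.6 against 327 and 295 (1.61 ± 0.28, adjusted p = 0.00717). The groups did not overlap for these 3. The EGF receptor ligand Hbegf rose from 165 and 189 to 369.9 and 618 (1.38 ± 0.27, adjusted p = 0.0108), a call lost without dexamethasone replicate 2 (1.02). Transcription factors of intestinal identity split, with Hnf4g from 1326 and 978 to 195 and 301 (-2.17 ± 0.25, adjusted p = 0.00102), Gata4 from 660.2 and 469 to 222 and 219.8 (-1.29 ± 0.20, adjusted p = 0.0043) and Cdx2 from 1304 and 1352 to 507 and 679.5 (-1.16 ± 0.19, adjusted p = 0.00534) among the 4 of 20 that fell. Foxa1 (1.69 ± 0.29, adjusted p = 0.00609) and Hoxc8 (2.62 ± 0.29, adjusted p = 0.000931) were among the 4 that rose, while Hnf4a did not pass (0.42). Beside these 4 falls and 4 rises, 5.29% of all genes fell and 6.93% rose.

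Of 35 sodium and water transport genes tested 8 rose and 2 fell (6.93% and 5.29% of all genes), with a median of 0.12. Those that rose were Guca2a (2.20), Car8 (1.70), Car12 (1.51), Sgk2 (1.18), Fxyd3 (1.04), Car13 (1.04), Clca1 (0.93) and Nedd4l (0.64). The number that rose was 4 and 3 without vehicle replicates 1 and 2 and 2 without dexamethasone replicate 1. At most 2 of these 8 calls therefore held without dexamethasone replicate 1. Besides Sgk1, the member that fell was Cftr, the chloride channel, from 895 and 934 to 492 and 533 (-0.82 ± 0.16, adjusted p = 0.0119), and its call was lost without vehicle replicate 2 (-0.79) or dexamethasone replicate 1 (-0.76). Atp1b1 of the sodium pump did not pass (-0.26). Of 26 acute phase, metallothionein and protease inhibitor genes 10 rose and 1 fell (6.93% and 5.29% of all genes), with a median of 0.86. The number that rose was 4 without vehicle replicate 2 and 3 without dexamethasone replicate 1. Slpi, a mucosal protease inhibitor, rose from 281 and 134 to 879 and 849 (2.08 ± 0.28, adjusted p = 0.00221), with no overlap and a DBZ array at 1164. The rise of Mt2, a metallothionein that glucocorticoids induce, was 0.96 and was lost without vehicle replicate 1 (0.69) or either dexamethasone array (1.16 and 0.75), and Mt1 did not pass (0.23).

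Dividing cells showed no call. Of 39 genes of G2 and mitosis none passed by limma or had an unadjusted p under 0.05, and the median was 0.01. Of 33 genes of G1/S and replication none passed and 3 had an unadjusted p under 0.05 (median -0.10). Mki67, a marker of cycling cells, read 729 and 606 in the vehicle and 516 and 659.5 in the dexamethasone arrays, which overlapped (-0.18 ± 0.28, adjusted p = 0.729). Of 23 stem cell and Wnt genes 2 rose and 1 fell, shares near the 6.93% and 5.29% of all genes. Igfbp4 rose from 439.6 and 393 to 1035 and 918 (1.20 ± 0.16, adjusted p = 0.00247), and Ccnd2, cyclin D2, from 1325 and 842 to 2197 and 2763 (1.21 ± 0.24, adjusted p = 0.0119). Hopx, a marker of a slow-cycling crypt population, fell from 1930 and 1848 to 784 and 909.5 (-1.15 ± 0.22, adjusted p = 0.00974). The call of Ccnd2 was lost without vehicle replicate 2 (0.89) or dexamethasone replicate 2 (1.05) and that of Hopx without dexamethasone replicate 1 (-1.04).

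Outside the position lists, several of the steepest rises were larger in dexamethasone replicate 1 than in replicate 2. Nupr1, a stress-induced chromatin protein, read 103 and 34.2 in the vehicle and 1897 and 362 in the dexamethasone arrays (3.53 ± 0.64, adjusted p = 0.00818). Klk1, tissue kallikrein, read 581 and 338 against 9045 and 1401 (2.97 ± 0.65, adjusted p = 0.0178), and Saa3, an acute phase protein that is also in the large intestine list, 52.9 and 38.9 against 932 and 206 (2.97 ± 0.53, adjusted p = 0.00724). Other probe sets of Klk1 did not all show its sign. Without dexamethasone replicate 1 the changes were 2.35 for Nupr1, 1.63 for Klk1 and 1.92 for Saa3, and all 3 calls held there but were lost without vehicle replicate 2 (2.87, 2.59 and 2.80). Tspan1, a tetraspanin, read 131 and 70 against 2058 and 283 (2.85 ± 0.69, adjusted p = 0.0276), and Reg3g, an antibacterial lectin, 669 and 209 against 4746 and 1191 (2.63 ± 0.62, adjusted p = 0.0253). Their calls were lost without dexamethasone replicate 1 (1.44 and 1.63) and without vehicle replicate 2 (2.45 and 1.81), for Tspan1 also without vehicle replicate 1 (3.25) or either combination array (2.84 and 2.85) and for Reg3g also without combination replicate 1 (2.62). Rises that were alike in both dexamethasone arrays included Upk3b, a uroplakin also made by mesothelium, from 51.9 and 23.9 to 268 and 251 (2.49 ± 0.27, adjusted p = 0.000841), and Prss30, a serine protease, from 339 and 294 to 1689 and 1454 (2.27 ± 0.17, adjusted p = 0.000137).

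The steepest falls outside the position lists, after the enzymes described, included Max, the partner of Myc, from 779 and 1126 to 81.2 and 198 (-2.76 ± 0.34, adjusted p = 0.00147), and Casp6, an executioner caspase, from 2099 and 1824 to 482 and 257 (-2.43 ± 0.27, adjusted p = 0.000931). Rab5c, a small GTPase of early endosomes, fell from 1413 and 1270 to 242 and 254 (-2.38 ± 0.17, adjusted p = 0.000124), and Pigt, of the enzyme that attaches GPI anchors, from 470.1 and 354 to 70 and 35.7 (-2.74 ± 0.33, adjusted p = 0.00145). The dexamethasone arrays lay under the vehicle arrays for all 4, the calls held without each array in turn, and the DBZ array read 128, 395, 186 and 52.9.

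The effect of dexamethasone was set against its effect in the presence of DBZ by the interaction term of the same limma fit, (dexamethasone minus vehicle) minus (combination minus DBZ). It passed for 545 probe sets (4%) and 311 genes (3.84%). Its DBZ side is 1 array, whose spread is taken from the other groups, so these p-values do not show that mice with and without DBZ responded differently. Among the glucocorticoid-induced genes 6 of 39 passed. Bcl2l11, a pro-apoptotic gene, rose with dexamethasone against vehicle from 226 and 250 to 691 and 499 (1.26 ± 0.19, adjusted p = 0.00413) and read 1278 in the DBZ and 549 and 599.8 in the combination arrays (interaction 2.40 ± 0.31, adjusted p = 0.00509). Other probe sets of Bcl2l11 did not all show the same sign. Gata6, a factor of proximal and crypt epithelium, fell from 1661 and 1859 to 746 and 853 (-1.13 ± 0.16, adjusted p = 0.00316) and read 435 in the DBZ array and 1061 and 1071 in the combination arrays (1.27 ± 0.20, adjusted p = 0.0473, interaction -2.40 ± 0.26, adjusted p = 0.00278). Over all probe sets this second comparison gave 45 calls (0.33%), 1 with the replicate block and 0 without the variance trend, so no direction is read from it. The 3' to 5' ratios of the DBZ array, 1.80 for Gapdh and 2.17 for actin, were the highest of the 7 arrays.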

How the data were processed

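Each of the 8 samples had 1 column of probe-set signal intensity in a deposited table of 22690 probe sets, made by the authors with MAS5 per the submitters' processing notes (no version is given in them). The 64 control probe sets were left out. The DBZ columns were merged, and all arrays were brought to a common mean of 250 after trimming 2% at each end. Probe sets with a mean scaled signal of at least 38.82 (the 40th percentile) over 7 arrays were kept, and 12.32 (the 20th percentile) was added before log2. Group means were fitted with limma 3.58.1 in R 4.3.3 (lmFit, eBayes with trend, 3 residual degrees of freedom, two-sided, Benjamini-Hochberg over all probe sets tested, threshold 0.05). The script was tested on simulated data. A "call" is an adjusted p under 0.05, and changes are given as log2 with SE. Of the annotated probe sets 20393 had 1 symbol, 691 several and 1606 none, and 1 probe set stood for each gene, the one with the highest mean signal.

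The 56 gene lists held 2268 entries, 1946 with a probe set and 1496 bright enough to test. The members and lists were chosen with earlier results of these data known. Named were the 20 largest non-overlapping rises and falls outside the position lists, of each list up to 8 calls in each direction and up to 4 members without a call, a fixed set of receptor and fate genes, and the 10 smallest p-values of the interaction and of the combination against DBZ. Of 116 named calls with other tested probe sets, 105 had all of the same sign. Promoter sequences came from RefSeq (GRCm38.p6). The labels give group numbers but nothing that ties same-numbered mice, so the groups were treated as unpaired. Alternatives were the scaling, the constant added, the filter, the variance model, cross-hybridising probe sets, the replicate block and each array left out. The number of arrays limits the precision.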

Additional observations from a re-analysis of the deposited data

Results flagged for a closer look

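The interaction term of limma, (dexamethasone minus vehicle) minus (combination minus DBZ), passed the threshold for 545 probe sets. The DBZ side of the term is 1 array with no replicate, so the values below describe these 7 arrays and show no difference between mice with and without DBZ. The 10 genes with the smallest p-values of that term are given here. For Fabp6 the term was 12.12, and its signal was 0.64 and 1.22 in the vehicle, 3324 and 10010 in the dexamethasone, 11870 in the DBZ and 1190 and 1116 in the combination arrays. For Reg1 it was -6.29, with 7193 and 8090 in the vehicle, 101 and 54.7 in the dexamethasone, 95.5 in the DBZ and 96.1 and 72.5 in the combination arrays. Both genes mark position along the gut, and where each piece of intestine was taken was not tested.

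Among genes that were higher with dexamethasone than with vehicle and lower in the combination than in the DBZ array, the term was 5.50 for Tmigd1, 4.73 for Slc5a8, 3.39 for the brush border protease Mep1a and 3.30 for Neu1, a sialidase. Mep1a read 699 and 608 in the vehicle, 3441 and 4515 in the dexamethasone, 4812 in the DBZ and 2579 and 2874 in the combination arrays, while Neu1 read 249 and 203 against 987 and 821 for vehicle against dexamethasone, then 895 for DBZ alone and 325 and 363 for both agents. Among genes that were lower with dexamethasone than with vehicle, it was -3.16 for Aadac, -3.07 for Rab5c and -3.29 for Ces2g. Aadac read 691 in the DBZ and 1370 and 1337 in the combination arrays, Rab5c 186 against 303 and 316, and Ces2g 146 against 195 and 179.8.

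For Hmgn1, a nucleosome-binding protein, the term was -2.98. The vehicle arrays read 1393 and 1679, the dexamethasone arrays 1453 and 1554 and the combination arrays 1196 and 1544, while the single DBZ array read 165, so that this difference lies in 1 array.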

How the results depend on the processing

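The count of 1642 probe sets for dexamethasone against vehicle stayed between 1134 and 1659 under quantile or median scaling, another constant, a stricter filter, no variance trend, robust eBayes, the groups compared alone and the replicate block. The replicate block gave 1492, 908 higher and 584 lower. Same-numbered arrays deviated from their group means with a correlation of 0.05, so the numbers were not taken as pairs. Without a filter 1082 were called, and 1077 without probe sets that may cross-hybridise, where 8649 were tested. The values as deposited gave 10404 with a median shift of -0.92. Leaving out 1 array gave 572 to 1629.

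The combination against DBZ, 45 in the main setting, gave 8 as deposited, 6 after quantile scaling, 11 with the larger constant, 5 without a filter, 9 without cross-hybridising probe sets, 1 with the replicate block and 210 from its own groups alone. Without the variance trend limma called 0, where 1663 had an unadjusted p under 0.05. Leaving out 1 array gave 0 (1190 unadjusted, without combination replicate 2) to 33. The interaction, 545, gave 6572 as deposited, 233 without a filter, 206 without the trend and 91 to 562 with 1 array left out.

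Of 345 named calls, 138 were not lost without any 1 array. The most were lost without dexamethasone replicate 1 (173) and vehicle replicate 2 (169), fewer without a filter (94) or the trend (91), and none reversed. Relative to the median of all probe sets, a comparison added after seeing the data, the deposited values lost 24. Of 1064 list medians compared 48 changed sign, among them medians near 0 of the glucocorticoid-induced, G2/M, G1/S, ribosomal and sodium transport lists. Beyond the filter and fewer arrays, which alter what is tested, the cause was not tested. Signals near 12.32 lie close to background, so folds of dim genes are imprecise.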

Other observations

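Transport of vitamins and metals also differed between dexamethasone and vehicle. Slc46a1, the folate carrier of the upper intestine, read 2199 and 3093 in the vehicle and 277 and 246 in the dexamethasone arrays (-3.26 ± 0.30, adjusted p = 0.000427). Slc39a4, the zinc importer, read 724 and 691 against 1962 and 1855 (1.42 ± 0.16, adjusted p = 0.000877), and Slc34a2, a phosphate carrier, 289 and 45.2 against 1342 and 2382 (3.77 ± 0.59, adjusted p = 0.00441). None of these overlapped between groups, and in the DBZ array they read 521, 1703 and 3694. Of 22 genes of iron, calcium, zinc and phosphate handling tested, 3 rose and 3 fell (1 fell without vehicle replicate 2), beside 6.93% and 5.29% of all genes. Heph and Vdr, for iron export and vitamin D, did not pass (-0.40 and -0.17).

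Among immediate-early genes 4 of 34 rose (2 without vehicle replicate 1 and 1 without dexamethasone replicate 2) and Sgk1 fell, where 6.93% of all genes rose. Egr1 read 166 and 214 in the vehicle and 479.9 and 978 in the dexamethasone arrays (1.80 ± 0.31, adjusted p = 0.00611), and 185 in the DBZ and 386 and 513 in the combination arrays (1.22 ± 0.37, adjusted p = 0.233). All 4 arrays with dexamethasone lay over the 3 without it, and the second comparison did not pass. Hspb1, a small heat shock protein, rose from 373 and 249 to 1736 and 896 (1.99 ± 0.29, adjusted p = 0.00328), 1 of 3 heat shock genes of 38 that rose (1 without vehicle replicate 2 or either dexamethasone array), a share near the 6.93% of all genes, while Hspa8 did not pass (-0.42). Of 45 cell contact genes 5 rose and 1 fell, and 1 rose without vehicle replicate 2 or dexamethasone replicate 1 and 2 without dexamethasone replicate 2, so this count is no result about the list beside 6.93% and 5.29% of all genes. Dsg2, a desmosomal cadherin, rose from 942 and 1472 to 3087 and 2694 (1.28 ± 0.22, adjusted p = 0.00626), with other probe sets not all of its sign, and Cldn4, a sealing claudin, fell from 529.5 and 607 to 229 and 224 (-1.28 ± 0.18, adjusted p = 0.00254).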
